A study of Caenorhabditis elegans with 2 samples.

Results

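The regions described here are the piRNA genes of Caenorhabditis elegans chromosome IV, scored for peaks of the zinc finger protein ZFP-2. Every gene that the WBcel235 annotation calls a piRNA on this chromosome was taken, extended by 250 bp on each side and merged with its neighbours. This gave 14714 genes of the 15363 piRNA genes in the genome, in 2749 merged loci that cover 3.37 Mb, or 19.3% of the chromosome. The choice used position alone and no peak. Chromatin immunoprecipitation followed by sequencing (ChIP-seq) had been done with an anti-GFP antibody on sonicated whole hermaphrodites at the L4 stage, 52 hours after L1 arrest. The single group was strain OP534, which carries unc-119(tm4063) on chromosome III and the integrated transgene wgIs534, with ZFP-2 tagged by GFP and FLAG at its C terminus. There were 2 replicates, labelled as biological. The labels used here do not say in which cells the fusion is made. A whole-animal sample cannot tell binding in few cells from weak binding in many.

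The piRNAs of this nematode, also called 21U-RNAs for their length and their first base, are bound by the Argonaute PRG-1. They guide silencing of transposons and other foreign sequence in the germline. Most are made from their own short transcription units by RNA polymerase II, and an upstream sequence element, the Ruby motif, marks most of these units. A complex that contains SNPC-4, PRDE-1, TOFU-4 and TOFU-5 gathers on the clusters of chromosome IV. The question put to the data was how the peaks of ZFP-2 are spread over this part of the genome.

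The annotated genes were all 21 bp long, with 7295 on the plus strand and 7419 on the minus strand, and 96.2% began with T in the genome. The 5 examples below show 70 bp upstream and the 21 bp of the gene, 5′ to 3′, from the RefSeq WBcel235 genome, with the Ruby motif CTGTTTCA, or its core GTTTC where the full motif was not found, in capitals. The first is the gene beside the single thresholded peak of the loci. The next 3 lie near other strong peaks of the pooled replicates, and the last, 21ur-1, had no summit of any list within 2 kb.
21ur-5229: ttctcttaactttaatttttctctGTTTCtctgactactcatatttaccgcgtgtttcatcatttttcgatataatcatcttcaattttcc
21ur-15257: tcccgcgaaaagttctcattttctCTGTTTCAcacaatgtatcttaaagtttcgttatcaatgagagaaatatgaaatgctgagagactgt
21ur-8889: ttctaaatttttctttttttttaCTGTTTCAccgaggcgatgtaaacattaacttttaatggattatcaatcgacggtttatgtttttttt
21ur-7591: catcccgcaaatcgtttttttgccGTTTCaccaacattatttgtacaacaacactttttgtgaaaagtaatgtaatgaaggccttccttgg
21ur-1: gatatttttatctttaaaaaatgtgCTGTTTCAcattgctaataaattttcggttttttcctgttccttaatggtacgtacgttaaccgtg
The spans are chrIV:5967019-5967109 (+), chrIV:9677414-9677504 (−), chrIV:15571165-15571255 (+), chrIV:14327393-14327483 (−) and chrIV:16687037-16687127 (+). In these 5 genes the motif started 45 to 47 bp upstream of the annotated 5′ end. As annotated, 21ur-1 is among the 1.39% of genes that begin with A.

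Most of the genes lay in 2 stretches. A left band of chromosome IV, from 4800001 to 7400000, held 2851 genes (19.4%), and a right band, from 13500001 to the chromosome end at 17493829, held 11563 (78.6%), with loci over 33.9% and 58.7% of these bands. The remaining 300 genes were scattered over 10.9 Mb. Loci had a median length of 758 bp (521 to 15998) and a median of 2 genes (1 to 97), and 964 loci (35.1%) held a single gene. Placed by the lower coordinate of each piRNA gene, 5545 (37.7%) lay in protein-coding genes, but 589 (4.0%) in an exon of one. The loci were poorer in G and C than the rest of chromosome IV (30.1% against 35.7%). They also held less promoter sequence, taken as 1000 bp upstream to 200 bp downstream of an annotated 5′ end of a protein-coding gene (17.1% against 28.0% of the length).

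The pooled list came from both replicates together, each replicate had a list of its own, and these 3 lists include background calls. The thresholded list held the peaks retained by irreproducible discovery rate (IDR), and its 660 peaks were the 660 strongest of the 14658 pooled ones. The replicate lists held 18200 and 17770 peaks. Chromosome IV had 103 thresholded, 2461 pooled, 3020 replicate 1 and 2953 replicate 2 peaks. A peak was placed by its summit, which stood at the centre of the peak for 99.0% of pooled peaks on chromosome IV and 77.7% of thresholded ones. The read depth is unknown, so intervals are exact 95% intervals that treat peaks as independent and cover counting error only.

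ZFP-2 peaks were sparse at the piRNA loci. Of the 103 thresholded summits on chromosome IV, 1 lay in the loci and 102 in the rest, which is 0.971% of summits (Clopper-Pearson interval 0.0246 to 5.29%) in 19.3% of the sequence. The densities were 0.0297 per 100 kb in the loci and 0.722 per 100 kb in the rest, a ratio of 0.0411 (0.0010 to 0.234). The same number of strongest peaks taken from replicate 1 alone gave 0.112, and from replicate 2 alone 0.0423. In the pooled list, 260 summits lay in the loci and 2201 in the rest, or 7.71 against 15.6 per 100 kb, a ratio of 0.495 (0.434 to 0.563). Both replicates gave the same direction. Replicate 1 had 12.1 against 18.5 summits per 100 kb, a ratio of 0.656 (0.590 to 0.729), and replicate 2 had 10.1 against 18.5, a ratio of 0.547 (0.487 to 0.613). All these intervals lie below 1, and the replicates differ from one another by less than either differs from 1.

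Counted by gene, 1 of the 14714 piRNA genes (0.00680%) had a thresholded summit within 250 bp, and counted by locus, 1 of 2749 (0.0364%) held such a summit. The share was 0.378% for 521 bp tiles that covered chromosome IV clear of the loci. A single-gene locus has the length of such a tile, but most loci are longer, so tile shares serve as a background and not as a matched test. A pooled summit lay within 250 bp of 509 genes (3.46%) and in 247 loci (8.99%), against 7.69% of tiles. In replicate 1 the numbers were 831 genes (5.65%) and 365 loci (13.3%), against 8.99% of tiles, and in replicate 2 they were 690 genes (4.69%) and 314 loci (11.4%), against 9.12% of tiles. Genes in 1 locus share summits and are not independent. Only 13 loci held 2 pooled summits and none held more. The piRNA genes near a summit in both replicates numbered 116, which is 14.0% of those of replicate 1 and 16.8% of those of replicate 2.

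**Figure D1:**
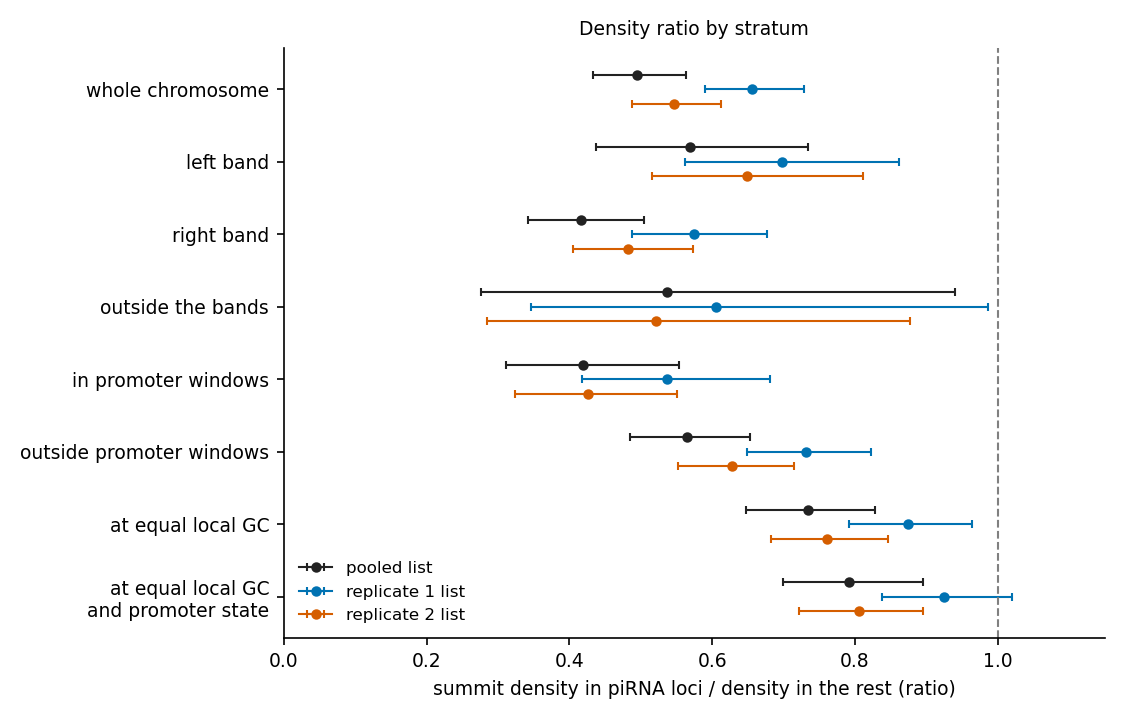
Ratio of summit density in piRNA loci to that in the rest of the same stretch of chromosome IV (horizontal axis, no unit), for the pooled list and both replicates, with exact 95% intervals as bars. The dashed line marks equal density. Every point lies below 1, and the ratios nearest to 1 are those at equal local GC and promoter state, where the interval of replicate 1 crosses 1.

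The lower density held in both bands and outside them. In the left band there were 79 pooled summits in loci and 271 in the rest, a ratio of 0.569, with 0.697 in replicate 1 and 0.649 in replicate 2. In the right band, which holds most of the genes, there were 169 and 286, a ratio of 0.416 (0.342 to 0.505), with 0.575 in replicate 1 and 0.482 in replicate 2, and no thresholded summit lay in loci against 19 in the rest of the band. Even the scattered loci outside the bands had a pooled ratio of 0.536 (0.277 to 0.940), from 12 summits against 1644. Over both bands the ratio was 0.465 in the pooled list, from 248 and 557 summits, and 0.0326 in the thresholded list, from 1 and 32. The intervals of the left and right bands overlap in all 3 of these lists.

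**Figure D2:**
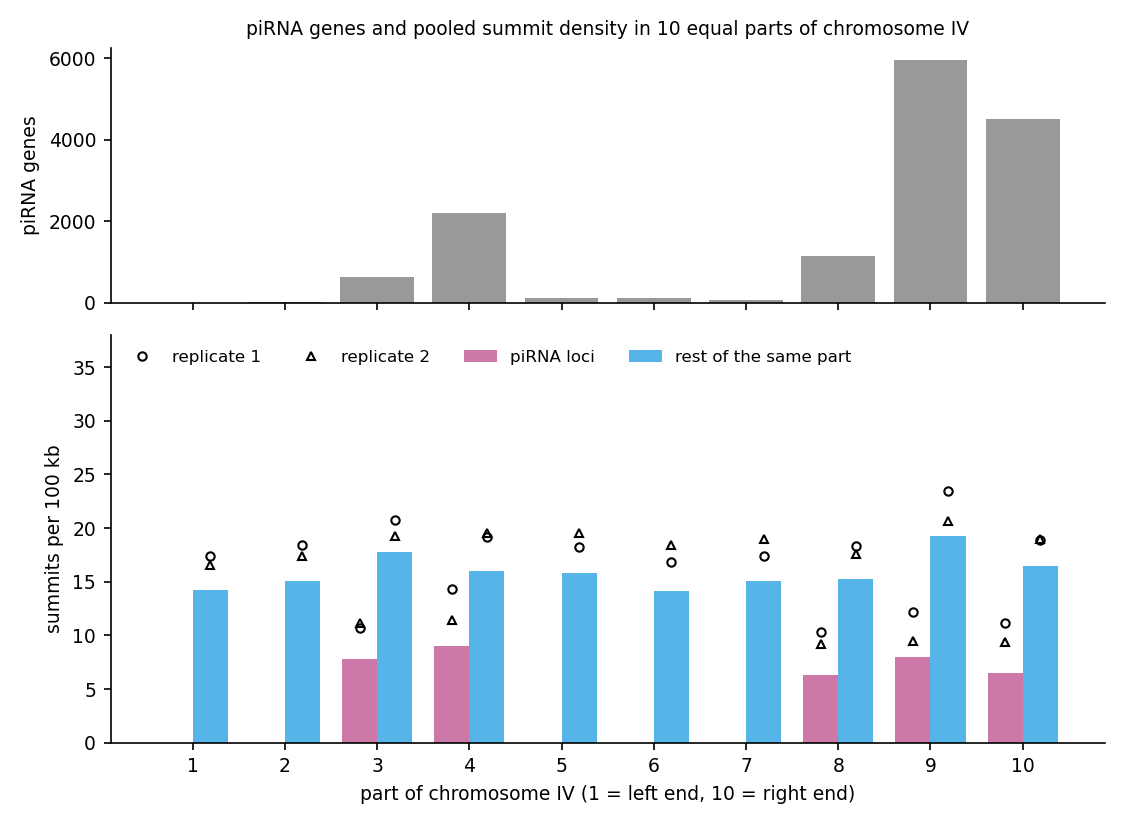
Top, number of piRNA genes in 10 equal parts of chromosome IV from left to right. Bottom, pooled summits per 100 kb (bars) in piRNA loci and in the rest of the same part, with the replicates as open symbols. Parts in which loci cover under 5% of the length have no loci bar. In the 5 parts with both bars the loci stand lower in the pooled list and in both replicates.

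Along the chromosome, the decrease at loci showed as a mild dip in the bands. Bins of 100 kb had a median of 11 pooled summits in the bands (1 to 26, 65 bins) and 15 outside them (1 to 36, 109 bins). The medians were 15 and 18 in replicate 1, and 14 and 18 in replicate 2. Across all 174 bins the number of piRNA genes and of pooled summits had a Spearman rho of −0.298 (−0.188 in replicate 1 and −0.335 in replicate 2), given as a description, since bins share libraries and differ in base composition. The bin with most piRNA genes, chrIV:16000001-16100000, had 486 of them and loci over 87.6% of its length, yet held 15 pooled, 10 replicate 1 and 17 replicate 2 summits. The next held 442 genes (chrIV:15800001-15900000), with 9 pooled, 18 replicate 1 and 9 replicate 2 summits. The bin chrIV:15300001-15400000 held 430 genes, with 8 pooled, 6 replicate 1 and 6 replicate 2 summits. No thresholded summit lay in these 3 bins. The first of these bins was thus at the pooled median of bins outside the bands, the third was below the band medians in all 3 lists, and the 3 bins differ in which replicate had more.

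Summit density was lowest next to the piRNA gene itself, without a steady rise farther out. Within 50 bp of a gene there were 5.56 pooled summits per 100 kb, between 100 and 150 bp 8.80, and between 200 and 250 bp 10.8. Between 300 and 500 bp there were 15.7. The density was then 10.9 between 500 and 1000 bp, close to that at 200 to 250 bp, 11.95 between 1 and 2 kb, 14.0 between 2 and 5 kb and 17.8 between 5 and 20 kb. Replicate 1 had 10.4 per 100 kb within 50 bp, 17.7 between 300 and 500 bp and 15.1 between 500 and 1000 bp, and replicate 2 had 7.76, 17.3 and 14.3. Base composition moved with the distance, from 28.6% GC within 50 bp to 33.9% between 200 and 250 bp and 34.7% between 300 and 500 bp. Its part in the difference was not tested. There was little difference between the sides of a gene. Pairs of a summit and a gene within 250 bp numbered 220 upstream and 263 downstream of the 5′ end in the pooled list, 394 and 400 in replicate 1, and 335 and 341 in replicate 2.

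**Figure D3:**
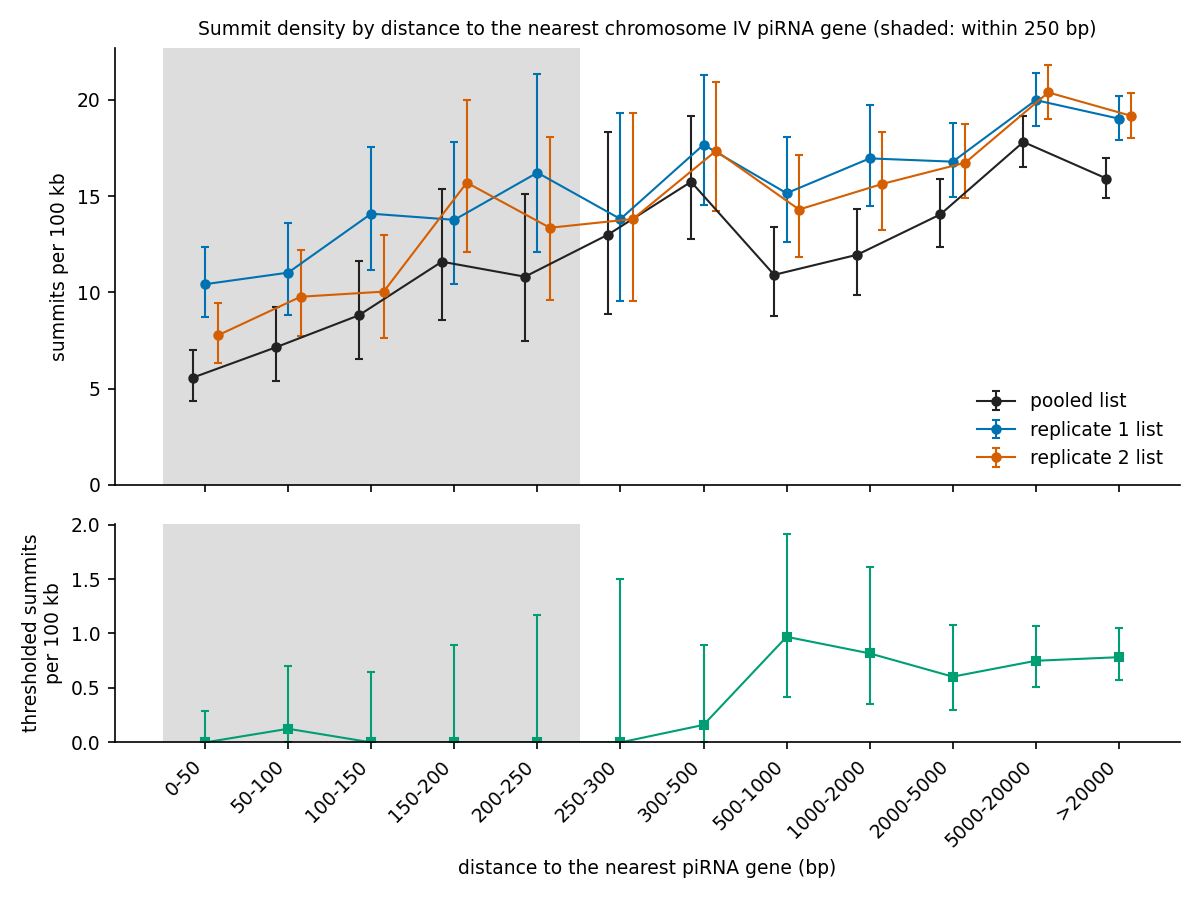
Summits per 100 kb (vertical axes) by distance to the nearest piRNA gene of chromosome IV in bp, for the pooled list and both replicates (top) and the thresholded list (bottom), with exact 95% intervals. The shaded classes make up the piRNA loci. Density is lowest within 50 bp of a gene in the pooled and replicate lists, and the thresholded list has 1 summit within 250 bp.

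Of the thresholded summits outside the loci, 1 lay within 500 bp of a piRNA gene. The nearest lay 354 bp from 21ur-10291, in an intron of Y57G11C.22, with a signal of 102. The next was 558 bp from 21ur-3718, near the tRNA gene WBGene00014560, with a signal of 121. The third nearest was 662 bp from 21ur-13616, in the promoter window of eelo-2, with a signal of 235.2. Signal here is the deposited enrichment value of a peak, used to rank peaks within a list. The 102 summits lay a median of 14379.5 bp from a piRNA gene (354 to 389006). Of the 33 thresholded summits inside the bands, 22 lay in promoter windows, among them those of sqd-1 (3098), hsp-1 (279) and rps-4 (118), with the signal in brackets. These genes encode an RNA-binding protein, a heat shock protein of the HSP70 family and a protein of the small ribosomal subunit. The other 11 lay outside promoter windows, 4 of them near a tRNA gene and 7 near no tRNA, snoRNA, snRNA, rRNA or miRNA gene. The 32 outside the loci had a median distance of 3262.5 bp, where all positions of the bands outside loci had 1620 bp.

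Strong peaks were rarer in the loci than weak ones. When the pooled peaks of chromosome IV were ranked by signal, 1 of the first 100 lay in the loci, 5 of the first 200, 18 of the first 500 (3.60%), 77 of the first 1000 (7.70%) and 195 of the first 2000 (9.75%). In replicate 1 the loci held 32 of the first 500 and 87 of the first 1000, and in replicate 2 they held 30 and 87. Split into 10 classes of equal size, the strongest class had 3.24% of its pooled summits in the loci and the weakest 13.8%, against 19.3% of the length. The same classes had 4.97% and 19.5% in replicate 1, and 4.05% and 16.3% in replicate 2. In the weakest class of replicate 1 the share was thus that of the length. The median signal was 29.7 in loci (quartiles 27.1 to 34.5) and 32.2 in the rest (28.0 to 39.8) in the pooled list. It was 14.5 against 15.6 in replicate 1 and 18.7 against 19.9 in replicate 2, so the medians lay close together (ratios of 0.924, 0.932 and 0.939) while the highest pooled signal was 184 in loci and 4010 in the rest.

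**Figure D4:**
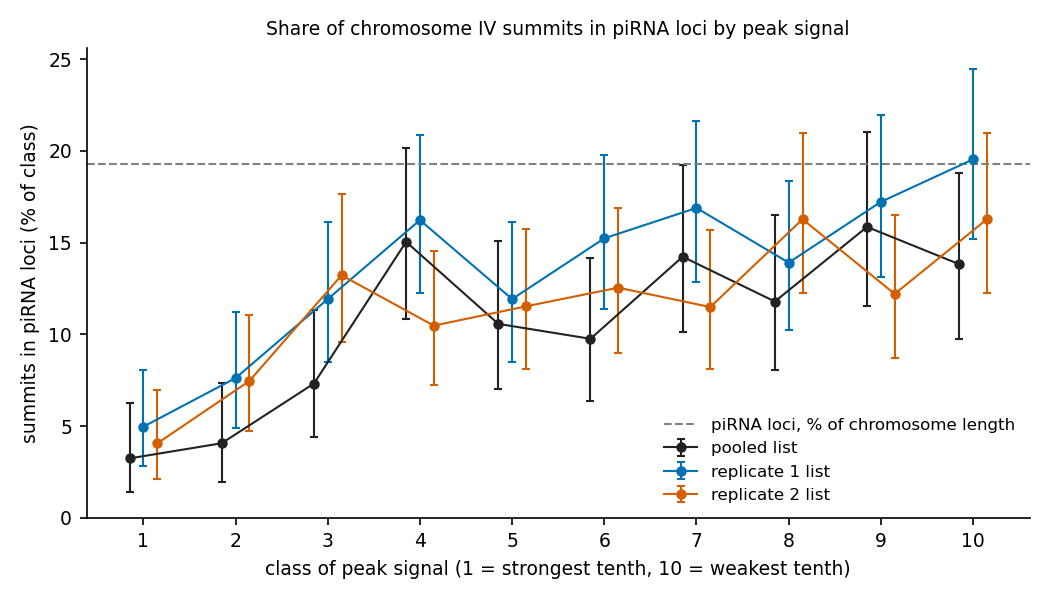
Share of chromosome IV summits that lay in piRNA loci (percent of the class, vertical axis) by class of peak signal from strongest to weakest, for the pooled list and both replicates, with exact 95% intervals. The dashed line is the share of the chromosome covered by loci, 19.3%. The 3 strongest classes lie lowest in the pooled list, at 3.24, 4.07 and 7.32%.

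Peaks in the loci also recurred less often between replicates. A summit of each replicate lay within 100 bp for 45 of 260 pooled summits in the loci (17.3%, 12.9 to 22.5) and for 671 of 2201 in the rest (30.5%, 28.6 to 32.5). Since recurrence follows signal, the pooled peaks were split into 3 equal classes by signal. In the strongest class 22 of 48 recurred in the loci (45.8%, 31.4 to 60.8) and 61.8% in the rest (58.3 to 65.3), in the middle class 15.7% and 21.7%, and in the weakest class 6.36% and 5.21%. Within each class the intervals overlap. Matching the replicates directly, 49 of 409 replicate 1 summits in loci had a replicate 2 summit within 100 bp (11.98%), against 24.97% in the rest, and 46 of 341 replicate 2 summits had a replicate 1 summit (13.5%), against 25.1%.

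The density was lower in the loci both inside and outside the promoters of protein-coding genes. In promoter windows, 53 pooled summits lay in loci and 866 in the rest, a density ratio of 0.419 (0.312 to 0.554), and the thresholded list had 0 in loci and 64 in the rest. If a count of 0 is taken to allow up to 3, the loci could hold up to 0.519 thresholded summits per 100 kb of promoter sequence, and the rest held 1.62. This bound is rougher than the exact intervals given elsewhere. The exact interval of this thresholded ratio is 0 to 0.407. Outside promoter windows the pooled ratio was 0.564 (0.485 to 0.654), with 0.731 in replicate 1 and 0.629 in replicate 2. Inside promoter windows the ratio was 0.537 in replicate 1 and 0.426 in replicate 2, so it was lower inside than outside in each of these lists. The intervals inside and outside overlap in the pooled list and in replicate 1. In replicate 2 they just fail to overlap (0.3243 to 0.5512 inside and 0.5515 to 0.7141 outside). In introns outside promoters the pooled ratio was 0.576, in exons 0.606 and between genes 0.639. In replicate 1 the intervals include 1 both in introns (0.860, 0.696 to 1.05) and in exons (0.795, 0.587 to 1.06). Of the pooled summits in loci, 45% lay between protein-coding genes and 20.4% in promoter windows, and the loci themselves have 47.6% and 17.1% of their sequence there. In the rest of the chromosome 17.7% and 39.3% of the summits lay there, in 24.2% and 28.0% of the sequence.

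Other genes that lie among the piRNA genes were then compared with their kind elsewhere. Of the 409 protein-coding genes with a 5′ end in a piRNA locus, 0 had a thresholded summit in a promoter window, against 95 of 2872 elsewhere on chromosome IV (3.31%, 2.68 to 4.03). A pooled summit was found for 60 of the 409 (14.7%, 11.4 to 18.5) and 796 of the 2872 (27.7%, 26.1 to 29.4). The shares were 17.6% and 29.7% in replicate 1, and 18.1% and 30.7% in replicate 2. Promoter windows of genes that start in the loci had a median GC content of 31.4%, against 35.1% elsewhere, and the part of this in the difference was not tested. The tRNA genes, which RNA polymerase III transcribes, had similar shares in both territories. A pooled summit lay within 250 bp of 11 of the 14 tRNA genes in the loci (78.6%, 49.2 to 95.3) and of 43 of the 57 elsewhere (75.4%, 62.2 to 85.9). Each replicate had 10 of 14 and 41 of 57. With 14 genes the interval is wide, and a difference of some size could not be seen. In the thresholded list 1 of the 14 was called, and 10 of the 57. The snoRNA genes, which guide RNA modification, had a pooled summit for 0 of 4 in the loci and 25 of 55 elsewhere, and in the replicates for 0 of 4 in the loci against 24 and 29 of 55. The miRNA genes had a pooled summit for 1 of 6 in the loci and 10 of 44 elsewhere, and in the replicates for 0 of 6 against 8 and 15 of 44. With 4 and 6 genes in the loci these counts are too small for a comparison.

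The single thresholded summit of the loci lay in 1 of these tRNA genes. Its peak spans chrIV:5966950-5967385, with the summit at 5967168 and a signal of 184, the 29th strongest of chromosome IV. A summit lay within 100 bp in both replicates, with signals of 65.3 in replicate 1 and 119 in replicate 2. The summit stood 59 bp from 21ur-5229 (WBGene00045617, chrIV:5967089-5967109, plus strand) and 79 bp downstream of its 5′ end. It also stood at base 9 of the 73 bp tRNA gene WBGene00022903 (chrIV:5967160-5967232, plus strand), which RefSeq calls a lysine tRNA. No promoter window holds the summit, and an unclassified noncoding RNA gene, B0350.73, holds it as well. The sequence from the start of the piRNA gene to the end of the tRNA gene, chrIV:5967089-5967232 (+), is shown because the summit is close to both, with the tRNA gene in capitals and the piRNA as the first 21 bases.
21ur-5229 to tRNA: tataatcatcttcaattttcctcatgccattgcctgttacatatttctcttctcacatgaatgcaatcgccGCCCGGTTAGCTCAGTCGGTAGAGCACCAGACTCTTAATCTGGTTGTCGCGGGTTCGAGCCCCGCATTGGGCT
The tRNA gene has 60.3% GC. When sequence and summits within 250 bp of tRNA, snoRNA, snRNA, rRNA and miRNA genes were left out, no thresholded summit remained in the piRNA loci.

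Apart from this peak the strongest pooled signal in the loci was 65.8, at rank 173 of chromosome IV. Of the 10 strongest pooled peaks in loci, 4 lay within 250 bp of a tRNA gene and 1 of a snoRNA gene, 2 lay in promoter windows, and 4 had none of these within reach. Sequence within 250 bp of tRNA genes makes up 0.235% of the loci. The peaks near tRNA genes, besides that at 21ur-5229, were those near 21ur-2860 (61.3), 21ur-2705 (56.4) and 21ur-9767 (50.6), with the pooled signal in brackets. The promoter cases were near 21ur-7591, at the F-box gene fbxa-83, which also has the snoRNA gene Y67A10A.14 beside it, and near 21ur-11261, in the windows of F41H10.4 and the histone deacetylase gene hda-6. The summit near 21ur-11261 had a pooled signal of 61.4 and stood 31 bp from the 5′ end of hda-6, with signals of 29.6 in replicate 1 and 29.5 in replicate 2.

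The 4 others, near 21ur-15257, 21ur-8889, 21ur-6898 and 21ur-3690, were the strongest without such a neighbour. The peak near 21ur-15257, the gene outside the bands, had a pooled signal of 65.8 and a replicate 1 signal of 41.2, with no replicate 2 summit within 100 bp. That near 21ur-8889 had 63.4 in the pooled list, 45.7 in replicate 1 and 19.3 in replicate 2. That near 21ur-6898 had 57.4 in the pooled list and 25.3 in replicate 1, again with no replicate 2 summit. That near 21ur-3690 had 53.6 in the pooled list, 17.8 in replicate 1 and 34.7 in replicate 2. Of the 10 peaks, 8 were thus seen in both replicates, and 9 had a single piRNA gene within 250 bp of the summit. In 4 of the 10 the summit stood over 200 bp from the nearest piRNA gene.

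Base composition moved with these differences. In windows reaching 100 bp to each side of a position, the classes of lowest GC held 19.6% and 23.1% of the loci, against 5.95% and 8.43% of the rest, and had few summits in both territories. The lowest class, with a median of 23.4% GC, had 4.54 pooled summits per 100 kb in the loci and 7.25 in the rest. The class of highest GC, with a median of 47.3%, had 49.2 pooled summits per 100 kb in the loci and 41.7 in the rest, from 41 and 746 summits. The replicates differed in direction there, with 45.6 against 40.1 in replicate 1 and 33.6 against 45.2 in replicate 2. In the thresholded list this class had 0 summits in the loci and 62 in the rest. The interval of the ratio includes 1 in each list. Weighted to equal GC, the pooled ratio was 0.734 (0.647 to 0.829), with 0.874 (0.792 to 0.963) in replicate 1, 0.761 (0.682 to 0.846) in replicate 2 and 0.111 (0.0028 to 0.616) in the thresholded list, where 1 summit stood against 9.05 from the densities of the rest. At equal GC and promoter state the pooled ratio was 0.792 (0.699 to 0.895), replicate 2 had 0.806 (0.722 to 0.896), the thresholded list had 0.127 (0.0032 to 0.708), and replicate 1 had 0.925 with an interval that reaches 1.02. At equal composition the difference was therefore smaller, and in replicate 1 it was within counting error once promoters were matched too. Why summits follow GC was not tested.

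**Figure D5:**
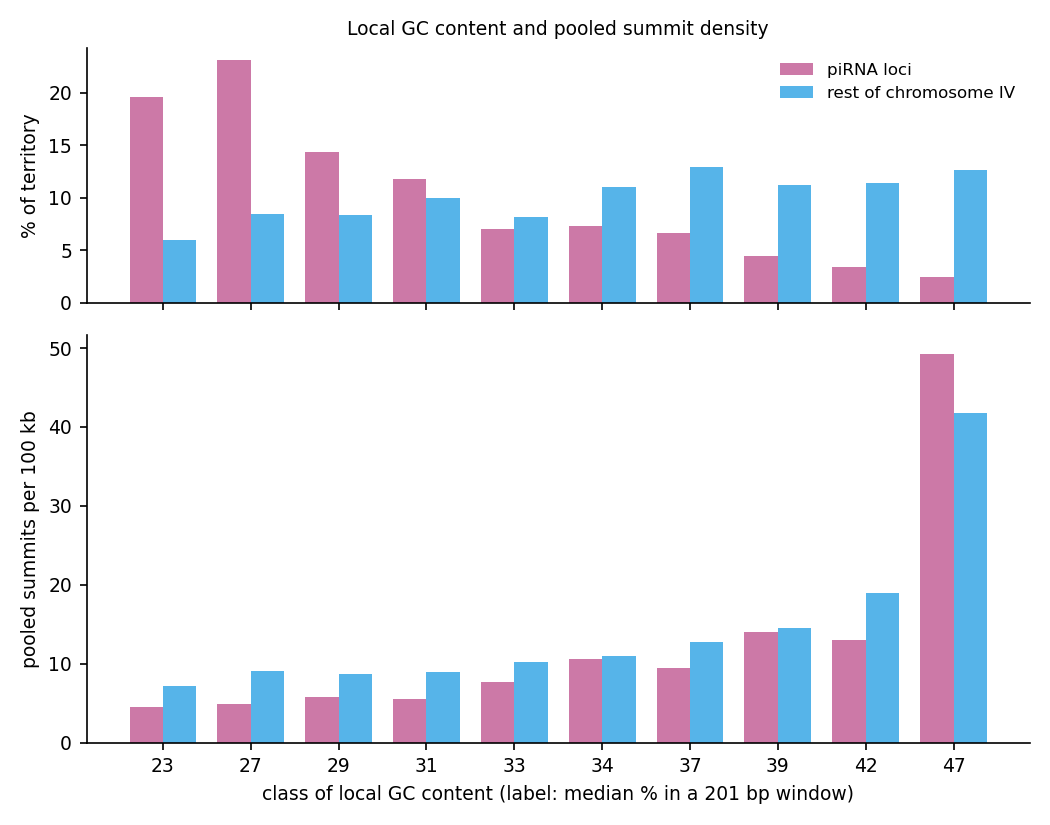
Top, share of the piRNA loci and of the rest of chromosome IV (percent of each territory) in 10 classes of local GC content. Bottom, pooled summits per 100 kb in the same classes. The loci are concentrated in the classes of low GC. In the highest class the loci have 49.2 and the rest 41.7 pooled summits per 100 kb, a ratio whose interval includes 1. Replicate 2, which is not drawn, has 33.6 and 45.2 there.

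Summit density was highest at lone piRNA genes in all 3 lists. Loci of 1 gene had 9.56 pooled summits per 100 kb, loci of 2 to 4 genes 8.80, loci of 5 to 9 genes 6.10 and loci of 10 or more 7.31. In replicate 1 the densities were 13.9, 13.3, 11.2 and 11.4, and in replicate 2 they were 13.3, 10.8, 9.15 and 9.15. The intervals of the first and last classes overlap in all 3 lists, but in replicate 2 only narrowly (10.3 to 16.9 and 7.67 to 10.8). Such overlap does not show that the classes are alike, and the difference was not tested. The 435 loci of 10 or more genes cover 1.46 Mb, with 28.9% GC and 10.9% promoter sequence, against 32.2% and 25.6% in the loci of 1 gene.

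The share of genes with the full Ruby motif lay close to the share over all piRNA genes in the pooled and replicate lists, and the core motif showed no single direction. CTGTTTCA, read on the strand of the gene 20 to 70 bp upstream of its 5′ end, was found for 5105 of 14714 genes (34.7%). Among the genes with a pooled summit within 250 bp it was found for 199 of 509 (39.1%, 34.8 to 43.5). That interval starts just above the share of all genes, but it treats genes as independent, and neighbouring genes share summits. The shares were 35.0% for replicate 1, 38.1% for replicate 2 and 36.2% for the 116 genes of both replicates, and their intervals include 34.7%. The core GTTTC, which the full motif contains, was found for 74.8% of all genes and 76.8% of those with a pooled summit. It was found for 75.8% in replicate 1 and 74.8% in replicate 2, but for 76 of the 116 genes of both replicates (65.5%, 56.1 to 74.1). Taking the motif itself on either strand, sequence within 50 bp of CTGTTTCA made up 14.4% of the loci and 0.952% of the rest of chromosome IV. In the loci it held 26 of the 260 pooled summits, or 5.35 per 100 kb against 8.11 in the rest of the loci. Replicate 1 had 8.03 against 12.8, and replicate 2 had 9.06 against 10.3. In the rest of chromosome IV the density was lower near the motif as well. It was 11.2 against 15.6 in the pooled list, 11.9 against 18.6 in replicate 1 and 12.6 against 18.6 in replicate 2. These rest on 15, 16 and 17 summits near the motif. The well-studied 21ur-1 had its nearest pooled summit 2667 bp away, its nearest replicate summits at 2679 and 2655 bp and its nearest thresholded summit at 30676 bp.

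Genes that act in the piRNA pathway were looked at as a separate list of 58 names, of which 54 were found among protein-coding genes. Of these, 3 had a thresholded summit in a promoter window (5.56%, 1.16 to 15.4), against 2.79% of all 19973 protein-coding genes. A pooled summit was found for 17 (31.5%), against 25.4% of all. Both shares are close to the background for a list of this size. The 3 genes were mut-15, nrde-2 and tofu-1, and each shares the summit with another gene's window. The summit at mut-15, a Mutator complex gene, had a signal of 154 (54.99 in replicate 1 and 99.3 in replicate 2) and also lies in the window of fib-1, which encodes fibrillarin. That at nrde-2, a gene of nuclear RNA interference, had 109 (48.1 and 59.7) and stands 935 bp from its 5′ end, in the window of atad-3. That at tofu-1, a gene needed for 21U-RNA production, had 104 (46.6 and 56.02) and also lies in the window of ruvb-1. When each summit was given only to the gene with the nearest 5′ end, 1 gene of the list kept one.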

How the data were processed

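ChIP-seq peak lists of 2 replicates of 1 group were used, with no control list, so no condition was compared with another. Per the series' description file, the authors deposited a list per replicate, a pooled list and an IDR-thresholded list on ce11. Column 7 is the authors' signal per peak, a deposited enrichment value whose scale is not given in the sources used here. Aligner, peak caller and IDR threshold are not given there either. ce11 has the sequence of WBcel235. Genes came from Ensembl release 115 and sequence from RefSeq.

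Summits were counted inside and outside the merged loci with Python 3.11.15, numpy 2.4.6, pandas 2.3.3 and scipy 1.17.1. Density ratios carry exact Clopper-Pearson intervals, and GC-weighted ratios carry exact Poisson intervals. The density ratio and its interval were tested on simulated data, and the GC-weighted ratio was not. The simulated summits were independent, did not follow GC or promoters, and were far more numerous than the thresholded ones. The simulation therefore does not check the interval of the thresholded ratio. The Poisson intervals treat the count expected from the rest as known. Bands are runs of 100 kb bins with at least 10 piRNA genes each, joined over gaps of up to 2 bins, with at least 1000 genes in all. No p-value is given, because peaks are not replicates. Named piRNA genes are those nearest the 10 strongest pooled summits in the loci, those of the thresholded summit and of its 3 nearest neighbours outside the loci, and 21ur-1. The members and lists were chosen with earlier results of these data known.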

Additional observations from a re-analysis of the deposited data

Results flagged for a closer look

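The 649 piRNA genes on other chromosomes were outside the comparison on chromosome IV. Their loci, extended in the same way, held 4 thresholded summits, or 1.21 per 100 kb against 0.649 per 100 kb in the rest of those chromosomes, a ratio of 1.86 whose interval includes 1 (0.506 to 4.8). A count of 0 would allow up to 3, which is why the 4 are listed. All 4 lay in promoter windows of protein-coding genes, namely atp-1 and mcrs-1 (signal 1364, 120 bp from 21ur-12279), vig-1 (2367, 118 bp from 21ur-13751), rps-21 (700, 103 bp from 21ur-7304), and rpl-24.1 and rps-10 (128, 84 bp from 21ur-11631). The pooled ratio was 0.801 (0.569 to 1.1), with 0.858 in replicate 1 and 1.1 in replicate 2. The difference from the loci of chromosome IV was not tested.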

How the results depend on the processing

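Every density ratio stayed below 1 under each alternative run, 16 each for the thresholded and pooled lists and 14 for each replicate. Not every interval did. With no extension it includes 1 in the thresholded list (ratio 0, 0 to 2.59) and in replicate 1 (0.714, 0.481 to 1.02). The thresholded ratio (0.0411) rests on 1 summit. It was 0 with no extension, in promoter windows alone, without other small RNA genes and without soft-masked bases, and 0.264 with 1000 bp extension, and the strongest peaks of the other replicate gave 0.0423 without replicate 1 and 0.112 without replicate 2. The pooled ratio (0.495) was 0.408 with 100 bp, 0.589 with 500 bp and 0.595 with 1000 bp extension, 0.419 inside and 0.564 outside promoter windows, 0.579 for any overlap of the peak, 0.141 for the strongest 10% and 0.734 at equal GC. From peaks of the other replicate's own list, with no new pooled list made, the ratio was 0.5 without replicate 1 and 0.589 without replicate 2. In replicate 1 (0.656) the values were 0.587 with 100 bp extension, 0.537 inside and 0.731 outside promoter windows, 0.219 for the strongest 10% and 0.874 at equal GC. In replicate 2 (0.547) they were 0.485 with no extension, 0.474 with 100 bp, 0.627 with 1000 bp, 0.426 inside and 0.629 outside promoter windows, 0.178 for the strongest 10% and 0.761 at equal GC. The share of pooled summits in loci seen in both replicates (17.3%) was 12.3% within 50 bp and 23.8% within 200 bp. The ratio of median signals (0.924) was 0.911 with 100 bp and 0.938 with 500 bp extension, and 0.932 and 0.939 in the single replicates. The pathway genes with a thresholded summit (3) were 1 by the nearest 5′ end. The causes were not tested, and the alternatives on GC, equal bins and soft-masked bases were chosen after seeing the data. No paired analysis was possible because there is a single group.

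Limits are the unknown read depth, the absence of a control list here, 1 strain and stage, and the mapping of reads in the repeat-rich loci, of which 44.2% of bases are soft-masked, against 36.4% in the rest of chromosome IV. The thresholded list holds too few peaks on this chromosome for any finer split of the loci.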
